A study of Mus musculus with 21 samples.

Results

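Hippocampal RNA-seq libraries from ethanol-treated mice given a short hairpin RNA against Acss2 were compared with libraries from ethanol-treated control mice, over the dorsal and the ventral hippocampus together. Of the 21 libraries in the series, 14 entered the comparison: all dorsal and ventral ethanol libraries with over 1000000 reads in genes, 7 from the knockdown arm and 7 from the control arm. The knockdown arm held dorsal replicates 1 to 4 and ventral replicates 2 to 4, and the control arm held dorsal replicates 1 to 3 and ventral replicates 1 to 4. Libraries are named below by region, arm and replicate number (dorsal knockdown 3, for example). The other 7 libraries, 4 without ethanol, 1 of total hippocampus and 2 shallow ethanol knockdown libraries, were left out. The question was which genes differed between the arms in a way that both regions shared, so the region was a term of the model next to the arm.

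All animals were male mice of 8 weeks, and all 14 libraries came after intraperitoneal ethanol at 2 g/kg, given as a 20% solution in saline, so the controls carried the ethanol too. The knockdown vector was an adeno-associated virus, AAV2/9 U6.shACSS2.CMV.EGFP, in which the U6 promoter drives the hairpin and the CMV promoter drives a green fluorescent protein. The sample protocol places the injection in the dorsal hippocampus, whereas the series text can be read as systemic delivery, and no vector is described for the control arm. Whether the arms also differed in virus is thus not stated, and such a difference cannot be told apart from loss of Acss2. The labels do not say whether replicates were separate animals, or whether a dorsal and a ventral library came from the same animal, so each p-value speaks only to the scatter among these libraries, part of which may be technical.

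ACSS2 is the nuclear and cytosolic enzyme that joins acetate to coenzyme A. The liver breaks ethanol down to acetate, which reaches the brain by the blood, and acetyl-CoA made from it can supply the acetyl groups of histones. In neurons of the hippocampus ACSS2 is known to sit at chromatin and to be linked to histone acetylation at neuronal genes and to memory.

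The tissue label was matched by its markers. The excitatory neuron genes Slc17a7 and Camk2a, the dentate transcription factor Prox1 and the CA3 receptor gene Grik4 had reads in all 14 libraries, and so did markers of astrocytes, microglia, oligodendrocytes and endothelium. The hypothalamic peptide genes Hcrt and Oxt had no read in 5 and 7 of the 14 libraries, the T cell gene Cd3e had none in 7, and the globin genes Hba-a1 and Hbb-bs were listed at 0 in all 14. Not all markers of neighbouring tissue were absent: thalamic Tcf7l2 and Prkcd and neocortical Rorb and Cux2 had reads in all 14 libraries, with Prkcd at 135 CPM in ventral control 4, the hypothalamic gene Pmch was at 0 in 2, and the T cell gene Cd8a reached 3.49 CPM in dorsal knockdown 3. Gene reads per library ran from 7416053 to 10634142 in the knockdown arm and from 2819837 to 13240179 in the control arm. Genes took 57.4 to 81.0% of the uniquely aligned reads, and the ribosomal RNA precursor Rn45s took 0.625 to 20.7% of gene reads. Dorsal knockdown 3 and ventral control 2 stood apart by interferon-stimulated genes, and ventral control 4 by choroid plexus genes, among them Ttr at 14483 CPM (TMM-scaled counts per 1000000 gene reads) against a median of 81.0 over the 14 libraries. For several results that rest on these 3 libraries, values without them are given below.

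Acss2, the targeted gene, was lower in most but not all knockdown libraries. In the dorsal hippocampus Acss2 stood at 44.3, 40.9, 18.02 and 19.3 CPM in knockdown 1 to 4 and at 53.1, 58.7 and 52.9 CPM in control 1 to 3. Every dorsal knockdown library lay below every dorsal control, and knockdown 3 and 4 lay far below knockdown 1 and 2. In the ventral hippocampus it stood at 28.9, 63.6 and 36.7 CPM in knockdown 2 to 4 and at 50.3, 54.2, 47.5 and 48.2 CPM in control 1 to 4. The arms overlapped there, because ventral knockdown 3 had the highest Acss2 level of all 14 libraries.

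**Figure D1:**
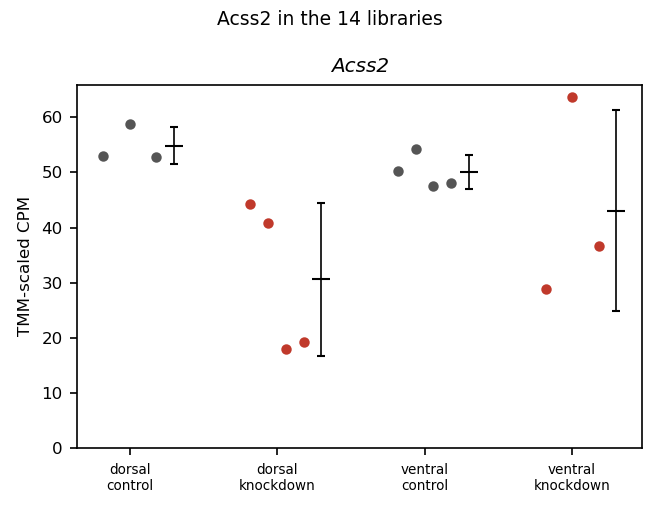
Acss2 in TMM-scaled counts per 1000000 gene reads (CPM), by region and arm; each point is a library (control grey, knockdown red) and the bar gives the mean and SD. The 4 dorsal knockdown libraries lie below the 3 dorsal controls, while ventral knockdown 3, at 63.6, lies above all controls.

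The knockdown mean was 30.6 ± 13.9 CPM (SD, n = 4) against 54.9 ± 3.34 CPM (SD, n = 3) in the dorsal hippocampus, or 55.8% of control. It was 43.1 ± 18.2 CPM (SD, n = 3) against 50.05 ± 3.03 CPM (SD, n = 4) in the ventral hippocampus, or 86.0% of control. Over both regions the mean was 69.0% of control. The log2 fold change shared by the regions was -0.53 (SE 0.23), with an adjusted p of 0.99985 by edgeR's quasi-likelihood test over all genes. An exact two-sided permutation test of Acss2 alone, with arms permuted within each region, gave p = 0.04 over 1225 arrangements, where the smallest possible p was 0.000816. Within regions the exact permutation p was 0.0857 in dorsal and 0.343 in ventral, where 0.0286 is the smallest either can give. In bulk tissue, fewer cells of a type and less RNA per cell cannot be told apart. Exons of Acss2 (chromosome 2, 155517948 to 155585724, plus strand, GRCm38) overlap the opposite-strand genes Ggt7, Acss2os and Gss, and the strand setting of the read counting was not given.

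No gene passed the test of the shared difference. Of 14578 genes tested, 0 had an adjusted p under 0.05 by edgeR's quasi-likelihood test (0% called), and 490 (3.36%) fell under 0.05 before adjustment. Of these 490, 271 were higher in the knockdown arm (1.86% of genes tested) and 219 lower (1.5%). By DESeq2 0 genes passed as well, and 633 lay under that unadjusted limit; by limma-voom 0 passed and 566 lay under it. The closest to the threshold was Nol3, at an adjusted p of 0.0541 by DESeq2, within a range of 0.0541 to 1 over all settings. The median log2 fold change over all tested genes was 0.01, and the middle 95% of genes lay between -0.65 and 0.75.

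Leaving out ventral control 2 gave the only calls in the shared comparison, Penk and Trnp1. Penk encodes proenkephalin, the precursor of the enkephalin opioid peptides. It stood at 93.0, 112, 177 and 85.0 CPM in dorsal knockdown 1 to 4 against 33.4, 18.5 and 19.4 CPM in the dorsal controls. Its ventral levels were 131, 53.8 and 44.4 CPM in knockdown 2 to 4 and at 23.2, 101, 19.2 and 20.997 CPM in control 1 to 4. Only ventral control 2 kept the arms of Penk from separating in both regions. Its shared log2 fold change was 1.61 (SE 0.45) with all libraries and 2.11 without ventral control 2, where edgeR's adjusted p was 0.0323 (range 0.0323 to 1 over all settings).

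Trnp1 encodes a nuclear protein known from neural progenitors and cortical folding. It stood at 346, 235, 327 and 281 CPM in dorsal knockdown 1 to 4 and at 125, 146 and 136 CPM in the dorsal controls. In the ventral hippocampus its levels were 164, 198 and 187 CPM in knockdown 2 to 4 and 107, 197, 101 and 102 CPM in control 1 to 4. Again ventral control 2 alone reached the knockdown range. The shared log2 fold change of Trnp1 was 0.83 (SE 0.19), and 1.00 without that library, with an adjusted p of 0.0323 by edgeR (range 0.0323 to 1 over all settings).

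A description that needs no model asked which genes kept the arms apart in each region, in the same direction. All knockdown libraries lay above all controls in both regions for 6 of 14578 genes (0.0412%) and below them for 5 (0.0343%), 11 genes in all (0.0755%). Opposite directions in the regions were as frequent, with 5 genes higher in dorsal and lower in ventral knockdown and 6 the other way. Within a single region such separations were far more frequent: 549 genes higher and 474 lower in dorsal, 153 higher and 238 lower in ventral. That contrast follows from the design. Within a region a single arrangement of the arms among 35 gives a separation in a given direction, a share of 0.0286. Taken over the 14578 genes, both dorsal counts lay somewhat above that share and both ventral counts below it. Over both regions it is a single arrangement among 1225, or 0.000816. The shares of 0.0412% and 0.0343% lie below 0.000816, so the 11 genes are described by their values only. The 6 higher genes were Nol3, Batf3, Wnt10b, Klhl40, Galnt15 and Sumf2, and the 5 lower genes were Avpr1a, Dlx6os1, Abca8a, Dio2 and Tmem260. Batf3, Wnt10b and Avpr1a averaged only 1.07, 0.95 and 0.61 CPM over the 14 libraries. The expression filter worked by groups of arm and region, so such rare genes could be tested through the libraries where they were high. Their separations are therefore not a result.

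Nol3 encodes an inhibitor of apoptosis with a caspase recruitment domain. In dorsal knockdown 1 to 4 it stood at 25.3, 31.3, 33.2 and 31.2 CPM, against 21.8, 16.6 and 18.5 CPM in the dorsal controls. In ventral knockdown 2 to 4 it stood at 34.6, 24.1 and 24.1 CPM, against 21.2, 17.7, 18.1 and 17.1 CPM in the ventral controls. The 7 knockdown libraries thus lay above the 7 controls whatever the region, at 29.1 ± 4.48 against 18.7 ± 2.01 CPM (SD, n = 7 each). In common the log2 fold change was 0.63 (SE 0.13), with 0.68 in dorsal and 0.58 in ventral. Nol3 (chromosome 8, 105276140 to 105281939, plus strand) shares exon sequence with the opposite-strand gene 4931428F04Rik.

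Klhl40, a Kelch-family gene known from skeletal muscle, ranged from 6.64 to 11.5 CPM (median 9.04) in the knockdown libraries and from 2.97 to 6.69 CPM (median 5.24) in the controls. The ranges met at their edges only between regions, and the shared log2 fold change was 0.70 (SE 0.19). Sumf2, whose product sits in the endoplasmic reticulum and modulates the activation of sulfatases, ranged from 11.1 to 18.02 CPM (median 12.4) against 8.95 to 11.5 CPM (median 10.1). Its shared log2 fold change was small, 0.34 (SE 0.14), and its exons overlap the opposite-strand gene Phkg1. Batf3, a transcription factor of dendritic cells, was low throughout, from 0.854 to 3.21 CPM in the knockdown arm and from 0.351 to 1.02 CPM in the control arm. Each control library held only 1 to 6 Batf3 reads, so its log2 fold change of 1.59 (SE 0.36) is a description and not a result.

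Among the lower genes, Dlx6os1 is a long noncoding RNA of the Dlx locus, which is active in forebrain GABAergic neurons. It stood at 14.7, 11.1, 6.55 and 7.50 CPM in dorsal knockdown 1 to 4 and at 16.9, 18.5 and 18.95 CPM in the dorsal controls. In the ventral hippocampus it stood at 10.501, 10.6 and 12.1 CPM in knockdown 2 to 4 and at 22.2, 20.0, 13.9 and 23.9 CPM in control 1 to 4. The log2 fold change was alike in the regions, -0.87 in dorsal and -0.85 in ventral, and -0.86 (SE 0.19) in common. Every knockdown library lay below every control of its region.

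Abca8a belongs to the lipid-transporting ABCA family. It stood at 10.8, 10.48, 9.50 and 10.4 CPM in dorsal knockdown 1 to 4 against 16.9, 18.97 and 14.1 CPM in the dorsal controls. The ventral values were 11.5, 8.40 and 9.35 CPM in knockdown 2 to 4 against 20.8, 16.1, 12.95 and 31.3 CPM in control 1 to 4. All 7 knockdown libraries lay within 8.40 to 11.5 CPM, below every control. In common the log2 fold change was -0.88 (SE 0.19).

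Dio2 encodes the deiodinase that turns thyroxine into active triiodothyronine, made in the brain mainly by glia. Its levels were 64.4, 42.0, 54.9 and 57.6 CPM in dorsal knockdown 1 to 4 and 66.0, 99.9 and 80.9 CPM in the dorsal controls. They were 61.3, 43.5 and 54.0 CPM in ventral knockdown 2 to 4 and 103, 74.7, 81.6 and 66.7 CPM in the ventral controls. Here too no knockdown library reached the lowest control, although the edges were close, 64.4 against 66.0 CPM. The shared log2 fold change was -0.61 (SE 0.15), and Dio2 lies on chromosome 12 (90724552 to 90738438, minus strand).

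**Figure D2:**
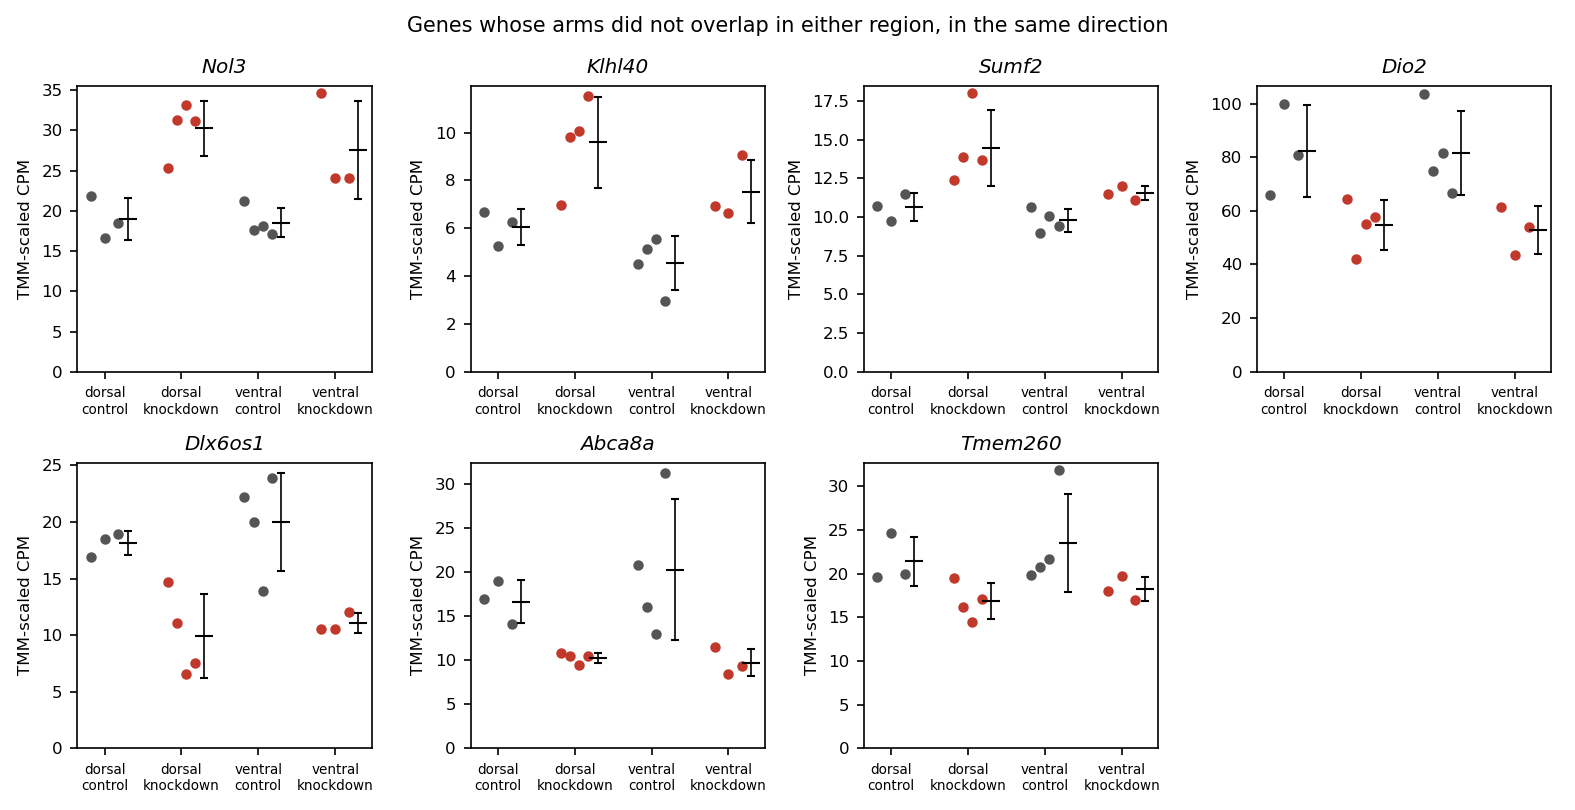
The 7 genes, each averaging 5 CPM or more, whose knockdown libraries lay all above or all below the controls in each region, in the same direction; points are libraries (control grey, knockdown red), bars give mean and SD, and the axes are TMM-scaled CPM. Nol3, Abca8a and Dio2 separate the arms over all 14 libraries.

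Tmem260, a transmembrane protein gene, ranged from 14.5 to 19.7 CPM in the knockdown arm and from 19.6 to 31.9 CPM in the controls, with a log2 fold change of -0.36 (SE 0.14). The other 3 genes fell outside the rule for named genes and are named here after their values were seen. Avpr1a, the vasopressin V1a receptor gene, had 0, 1, 0 and 1 reads in the dorsal knockdown libraries against 1, 3 and 3 in the dorsal controls, and 0, 1 and 3 reads against 4, 5, 24 and 22 in the ventral hippocampus. Such counts carry little weight alone, and the 2 deepest ventral controls hold most of the reads. Galnt15, an enzyme of O-linked glycosylation, stood at 2.08 to 7.32 CPM against 0.256 to 2.23 CPM. Wnt10b, a secreted Wnt ligand, stood at 0.415 to 2.91 CPM against 0.107 to 0.892 CPM, and for both genes the separation held only within regions.

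Most of the other genes with small p-values had unequal effects in the regions. Asb2, a ubiquitin ligase subunit gene, was near alike in both, at 3.01 to 4.96 CPM in the knockdown arm and 0.770 to 3.33 CPM in the controls (log2 fold change 1.28, SE 0.31). Paqr6, of the membrane progestin receptor family, had a log2 fold change of 0.42 in dorsal and 1.15 in ventral. Sh2d3c, an adaptor of adhesion signalling, had 0.39 and 0.93. Mylk, the myosin light chain kinase of smooth muscle, had 1.18 in dorsal and 0.27 in ventral, where the arms overlapped. No difference between the regions passed for these genes, with adjusted p of 0.998 for each by edgeR's interaction test.

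Jchain encodes the joining chain of secreted antibodies and marks plasma cells. It stood at 1.71, 5.24, 7.32 and 8.70 CPM in dorsal knockdown 1 to 4 and at 0, 0.286 and 0.491 CPM in the dorsal controls. Its ventral levels were 2.84, 0.519 and 0.831 CPM in knockdown 2 to 4 and at 0.543, 0.512, 0.963 and 0.440 CPM in control 1 to 4. The arms separated in dorsal only, where knockdown 1, at 12 reads, was the lowest of the 4 knockdown libraries. The expression filter worked by groups of arm and region, so Jchain could be tested through the group where it was high. Its dorsal separation is therefore given as values only. The B cell gene Cd79a, by contrast, was at 0.371 CPM or below in all 14 libraries and at 0 in 4 of them.

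On the lower side, Zdbf2, an imprinted gene, ranged from 8.51 to 37.8 CPM in the knockdown arm (median 27.5) and from 36.1 to 57.7 CPM in the controls (median 50.1), a log2 fold change of -0.95 (SE 0.26). Only the edges of these ranges overlapped. Fam13b (-0.36), Tmed8 (-0.53), D16Ertd472e (-0.54), Isoc1 (-0.52), P4ha1 (-0.43) and Zfp882 (-0.50) had small shared log2 fold changes of the same sign in both regions. P4ha1 encodes the catalytic subunit of collagen prolyl hydroxylase. Isl1, a LIM-homeodomain transcription factor of motor and some forebrain neurons, had 18, 44 and 43 reads in ventral control 2, 3 and 4, no read in ventral control 1, and 0 to 4 reads in the other 10 libraries. No fold change is given for it. Gmnc, a regulator of multiciliated cells, was at 0 to 1.87 CPM in the knockdown arm and 0.858 to 13.3 CPM in the controls, and its highest value came from ventral control 4, the library with the highest ependymal score. The part of ependymal cells in that value was not tested.

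The regional effects themselves were not alike across genes. Over the 14578 genes, the dorsal and ventral log2 fold changes had a Pearson r of -0.11 and a Spearman rho of -0.08, as a description across genes that share libraries and scaling within each region. The signs matched for 48.3% of genes: 24.9% were higher in both regions and 23.4% lower in both. Within the dorsal hippocampus edgeR called 0 genes, and 667 (4.58%) lay under 0.05 before adjustment. Within the ventral it called 0, and 593 (4.07%) lay under that limit. The difference between the regional effects gave 0 calls (smallest adjusted p 0.499 by edgeR), and 672 genes (4.61%) lay under 0.05 unadjusted, whereas DESeq2 called 9.

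Prph, Wfs1 and Pld5 had the smallest p-values for a difference between the regions. Prph encodes the intermediate filament peripherin. It stood at 0.427, 3.11, 0.874 and 1.47 CPM in dorsal knockdown 1 to 4 and at 10.7, 9.73 and 5.12 CPM in the dorsal controls. In the ventral hippocampus it stood at 12.1, 0.726 and 10.6 CPM in knockdown 2 to 4 and at 0.904, 0.256, 0.535 and 0.440 CPM in control 1 to 4. There knockdown 2 and 4 lay above all controls, while knockdown 3 lay within their range. The shared log2 fold change was 0.41 (SE 1.11), while the dorsal effect minus the ventral effect was -6.28. That difference had an adjusted p of 0.499 by edgeR and 0.000182 by DESeq2, the ends being 0.000182 and 1.00 over all settings.

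Wfs1, the wolframin gene, marks CA1 pyramidal neurons. It ranged from 86.5 to 144 CPM in dorsal knockdown and 151 to 314 CPM in dorsal control, but from 175 to 624.6 CPM in ventral knockdown and 34.9 to 98.6 CPM in ventral control. The arms were apart in each region, in opposite directions, and the shared log2 fold change was 0.77 (SE 0.55). Pld5, a phospholipase D family member without known catalytic activity, separated the arms in ventral only: 2.22, 0.830 and 2.08 CPM in knockdown 2 to 4 against 5.25, 20.7, 23.3 and 22.9 CPM in control 1 to 4, with 2.38 to 3.48 CPM in all dorsal libraries. Adjusted p for the regional difference was 0.499 (Wfs1) and 0.639 (Pld5) by edgeR, and 0.000677 and 0.00367 by DESeq2. Left without ventral knockdown 3, edgeR called Prph and Unc13c (adjusted p 0.0127 and 0.034), and without ventral control 1 it called Pld5 (0.0202).

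Microglial genes had the same sign in both regions for most members. All 22 members had a shared log2 fold change above 0 (52.2% of all genes had), with a median of 0.62, and 7 had an unadjusted p under 0.05 on the higher side (1.86% of all genes), 0 on the lower. The sign was positive in both regions for 18 of the 22 (24.9% of all genes), but the median was 1.11 in dorsal and 0.16 in ventral. Single libraries carried the ventral value, which was 0.00 without ventral knockdown 2 and 0.49 without ventral control 2. The shared median was 0.46 without dorsal knockdown 3, and no member passed the adjusted test.

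Cd68, the lysosomal glycoprotein of activated microglia and macrophages, stood at 11.1, 16.6, 24.1 and 18.2 CPM in dorsal knockdown 1 to 4 and at 4.46, 6.77 and 8.98 CPM in the dorsal controls. Its ventral levels were 24.5, 6.64 and 10.6 CPM in knockdown 2 to 4 and 6.51, 9.98, 5.57 and 6.60 CPM in control 1 to 4. The arms were apart in dorsal and overlapped in ventral, where knockdown 2 was by far the highest. The shared log2 fold change was 1.15 (SE 0.29). Trem2, the lipid-sensing receptor of microglia, had 0.90 (SE 0.33), whereas the homeostatic genes P2ry12 and Tmem119 had 0.21 (SE 0.22) and 0.46 (SE 0.27).

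Complement genes had 12 of 14 above 0 (52.2% of all genes), a median log2 fold change of 0.84, and 5 at an unadjusted p under 0.05 on the higher side (1.86% of all genes). The median was 1.54 in dorsal and 0.11 in ventral, and 7 of the 14 had opposite signs in the regions. Over all genes the signs matched for 48.3%, so that count is near the share over all genes. C3ar1, the receptor of the complement fragment C3a, ranged from 1.87 to 10.8 CPM (median 4.41) in the knockdown arm and from 1.26 to 2.96 CPM (median 2.23) in the controls, a log2 fold change of 1.26 (SE 0.35). C1qb, part of the C1q recognition molecule, had 0.94 (SE 0.33), and C4b, the fourth component, had 1.44 (SE 0.59), with 2.80 in dorsal and 0.11 in ventral. C4b reached 567 CPM in dorsal knockdown 3 and 401 CPM in dorsal knockdown 4, against at most 137 CPM in any control. The C1q genes and Itgam belong to the microglia list as well. Without dorsal knockdown 3 the complement median was 0.43, and C1qb had 0.70.

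Reactive astrocyte genes had a median of 0.90, with 19 of 20 above 0 (52.2% of all genes) and 4 at an unadjusted p under 0.05 on the higher side (1.86%). The median was 1.79 in dorsal and 0.17 in ventral, and the ventral value turned to -0.34 without ventral knockdown 2. Gfap, the astrocyte intermediate filament, had a log2 fold change of 2.01 in dorsal and 0.33 in ventral. Lcn2, a secreted lipocalin of strongly activated astrocytes, stood at 29.7 CPM in dorsal knockdown 3 and 15.4 CPM in ventral knockdown 2 and at 2.08 CPM or below in the other 12 libraries. Its shared log2 fold change of 3.81 (SE 1.27) therefore came from 2 libraries, and was 2.34 without dorsal knockdown 3. Cd44, the hyaluronan receptor, had 1.37 (SE 0.50), with 0.86 in dorsal and 1.93 in ventral. Without dorsal knockdown 3 the median of the list was 0.52, and homeostatic astrocyte genes had a median of 0.14.

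Interferon-stimulated and antigen presentation genes had the same sign in the pooled model for every member, yet opposite signs in the regions. The shared log2 fold change was above 0 for 36 of 36 members (52.2% of all genes), with a median of 0.84. On the higher side 2 had an unadjusted p under 0.05 (1.86% of all genes). In dorsal, 36 of 36 were above 0 (53.3% of all genes) with a median of 2.42. In ventral, 32 of 36 were below 0 (51.8% of all genes) with a median of -0.53, and 26 of 36 had an unadjusted p under 0.05 for the difference between the regions (4.61% of all genes). The mean log2 level of the list in each library, centred on the mean over the 14, was -0.92, 0.53, 2.89 and 1.52 in dorsal knockdown 1 to 4 and -0.99, -0.65 and -1.26 in the dorsal controls. It was 0.41, -0.80 and -0.35 in ventral knockdown 2 to 4 and -1.19, 2.09, -0.89 and -0.40 in ventral control 1 to 4.

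Dorsal knockdown 3 and ventral control 2 were thus the 2 highest libraries, and they belong to different arms. Without ventral control 2 the ventral median turned from -0.53 to 0.63 and the shared median became 1.51. Without dorsal knockdown 3 the dorsal median was 1.53 and the shared median 0.32. The negative ventral median therefore rested on ventral control 2.

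**Figure D3:**
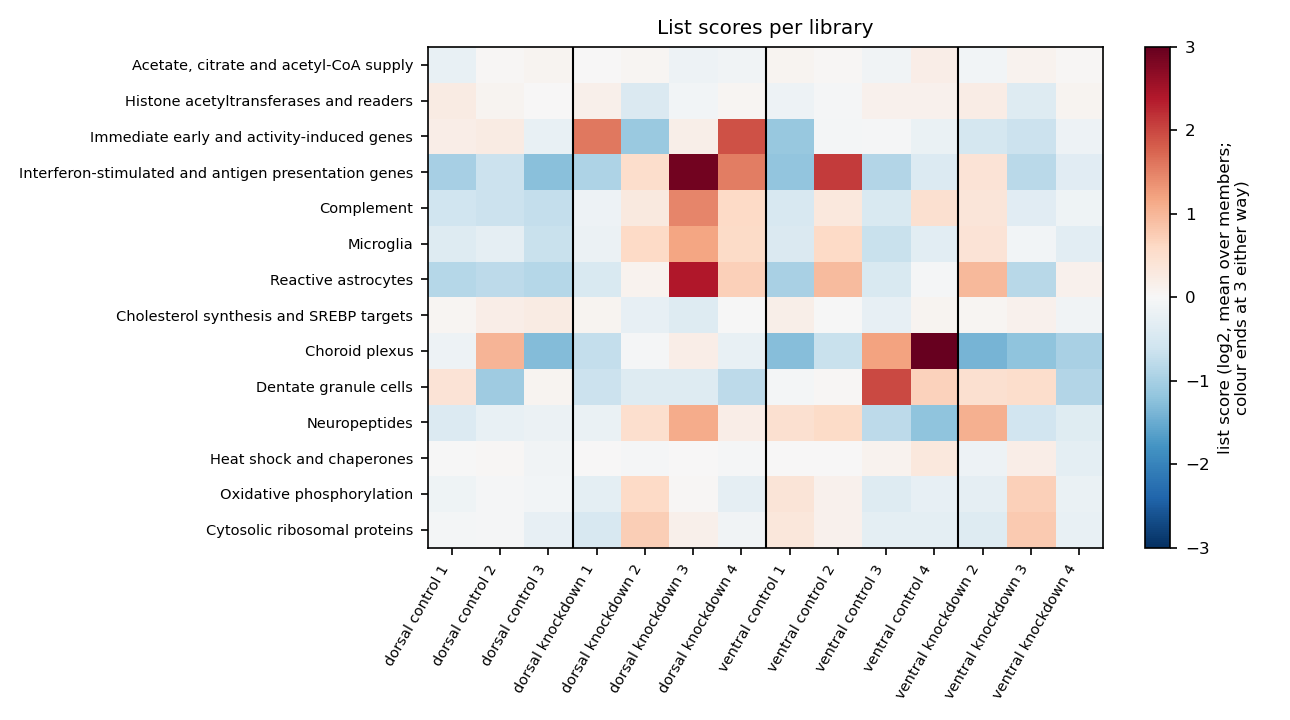
Mean log2 level of 14 gene lists in each library, centred on the mean over the 14 libraries; red is higher, blue lower, and the colour ends at 3 either way. The interferon row is highest in dorsal knockdown 3 (2.89) and ventral control 2 (2.09), and the choroid plexus row in ventral control 4 (5.57, beyond the scale).

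B2m, the light chain of class I molecules, stood at 55.1, 266, 381 and 169.8 CPM in dorsal knockdown 1 to 4 and at 46.8, 52.7 and 41.1 CPM in the dorsal controls. In the ventral hippocampus it stood at 372, 98.5 and 67.1 CPM in knockdown 2 to 4 and at 207, 260.4, 48.9 and 73.3 CPM in control 1 to 4. Dorsal arms were apart, and ventral arms overlapped widely. The class I heavy chain gene H2-D1 followed a like order, with 106 CPM in dorsal knockdown 3, 62.8 CPM in dorsal knockdown 4, 40.5 CPM in ventral knockdown 2 and 38.1 CPM in ventral control 2. Shared log2 fold changes were 1.36 (SE 0.52) for H2-D1 and 1.24 (SE 0.58) for B2m. Without dorsal knockdown 3 they were 1.06 for H2-D1 and 1.00 for B2m. The MHC class II list had 7 of 7 above 0 (52.2% of all genes). Its median was 0.91 (2.09 in dorsal, 0.12 in ventral), and 0.58 without dorsal knockdown 3. Of the lymphocyte and plasma cell list only 4 of 28 genes were tested, all 4 above 0, at a median of 2.41 (4.76 in dorsal, 0.11 in ventral). The expression filter worked by groups of arm and region, so a rare gene could be tested through the group where it was high. The signs and medians of these 4 genes are therefore not a result for the list.

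Some promoters of the interferon list hold letters of a known element, the interferon-stimulated response element, to which interferon regulatory factors bind. Sequences are from RefSeq (GRCm38.p6, the build named mm10), from 250 bases before to 50 after the gene's start, 5′ to 3′ on the gene's strand. Capitals mark matches, on either strand, to the letters GAAA, any 2 bases and GAAA again. They are shown for B2m, which is expressed in most cells, and for Isg15, Ifit3 and Gbp2, chosen after their values were seen. Their dorsal log2 fold changes were 3.94 (SE 1.63), 3.74 (SE 1.27) and 3.21 (SE 1.22). In ventral they were -2.66 (SE 1.50), -1.15 (SE 1.11) and -0.63 (SE 1.08), and the negative ventral median of the list rested on ventral control 2.
B2m, chr2:122147437-122147736, plus strand: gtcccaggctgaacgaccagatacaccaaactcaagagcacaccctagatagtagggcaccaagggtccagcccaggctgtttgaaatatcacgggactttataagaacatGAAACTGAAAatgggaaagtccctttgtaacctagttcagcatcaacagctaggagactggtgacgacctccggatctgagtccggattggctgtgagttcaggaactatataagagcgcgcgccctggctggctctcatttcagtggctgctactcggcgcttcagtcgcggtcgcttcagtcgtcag
Isg15, chr4:156200769-156201068, minus strand: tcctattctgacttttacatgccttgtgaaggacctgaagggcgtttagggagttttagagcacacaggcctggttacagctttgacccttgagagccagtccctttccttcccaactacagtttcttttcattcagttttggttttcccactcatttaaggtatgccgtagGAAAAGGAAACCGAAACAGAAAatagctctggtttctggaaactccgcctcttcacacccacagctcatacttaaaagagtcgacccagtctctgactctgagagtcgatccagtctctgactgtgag
Ifit3, chr19:34583279-34583578, plus strand: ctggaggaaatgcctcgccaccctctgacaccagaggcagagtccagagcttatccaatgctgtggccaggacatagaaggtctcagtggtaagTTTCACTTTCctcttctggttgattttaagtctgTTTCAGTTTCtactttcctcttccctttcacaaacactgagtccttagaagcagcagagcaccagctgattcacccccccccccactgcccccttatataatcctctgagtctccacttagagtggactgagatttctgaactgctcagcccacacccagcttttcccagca
Gbp2, chr3:142620413-142620712, plus strand: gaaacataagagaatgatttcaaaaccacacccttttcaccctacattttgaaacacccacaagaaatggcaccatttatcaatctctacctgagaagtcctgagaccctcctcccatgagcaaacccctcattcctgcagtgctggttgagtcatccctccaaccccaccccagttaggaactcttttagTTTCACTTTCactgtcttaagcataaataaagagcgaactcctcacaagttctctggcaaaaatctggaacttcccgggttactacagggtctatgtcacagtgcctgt

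The capitals in Isg15 cover 3 overlapping matches, and Ifit3 and Gbp2 carry the element on the other strand. A match stood in 16 of the 28 list members with a promoter in the table (57.1%) and in 403 of 11126 tested genes (3.62%). Members with a match had median log2 fold changes of 2.66 in dorsal and -0.78 in ventral, against 2.30 and -0.30 for members without. With all libraries both kinds thus had opposite regional signs. A match describes the letters only.

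Neuropeptide genes had 16 of 21 members above 0 (52.2% of all genes), with a median log2 fold change of 0.35 (0.54 in dorsal, 0.23 in ventral). In both regions 13 of 21 were above 0 (24.9% of all genes). Without ventral knockdown 2 the ventral median turned to -0.34. At an unadjusted p under 0.05 were 4 on the higher side (1.86% of all genes), Penk among them, and 0 on the lower (1.5%). Npy, neuropeptide Y, ranged from 36.3 to 853 CPM (median 129.5) in the knockdown arm and from 17.6 to 270.2 CPM (median 35.6) in the controls, with a log2 fold change of 2.00 (SE 0.75). Its highest values were in ventral knockdown 2 and dorsal knockdown 3, and without ventral knockdown 2 the log2 fold change was 1.05. Vgf, a secreted neurotrophin-induced precursor, ranged from 148 to 1001 CPM against 67.5 to 281 CPM, with 0.89 (SE 0.36). The median of the list was 0.66 without ventral control 1 and 0.23 without the 3 libraries that stood apart.

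Immediate early and activity-induced genes, which neurons switch on within minutes of strong input, had 27 of 33 above 0 (52.2% of all genes) and a median of 0.49, with 5 at an unadjusted p under 0.05 on the higher side (1.86%). The median was 0.94 in dorsal and -0.07 in ventral. Bdnf, the neurotrophin, ranged from 33.3 to 114 CPM (median 71.2) in the knockdown arm and from 26.2 to 61.4 CPM (median 41.4) in the controls, a log2 fold change of 0.72 (SE 0.27). Nptx2, a secreted synaptic pentraxin, stood at 205, 22.5, 112 and 302 CPM in dorsal knockdown 1 to 4 and at 42.4 CPM or below in all controls. Its ventral knockdown mean was 29.8 ± 11.6 CPM (SD, n = 3), and its log2 fold change was 2.38 in dorsal and 0.30 in ventral. The list's score spread widely within an arm, from -1.11 in dorsal knockdown 2 to 1.91 in dorsal knockdown 4, and the median was 0.30 without dorsal knockdown 4 and 0.23 with the replicate number as a block.

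**Figure D4:**
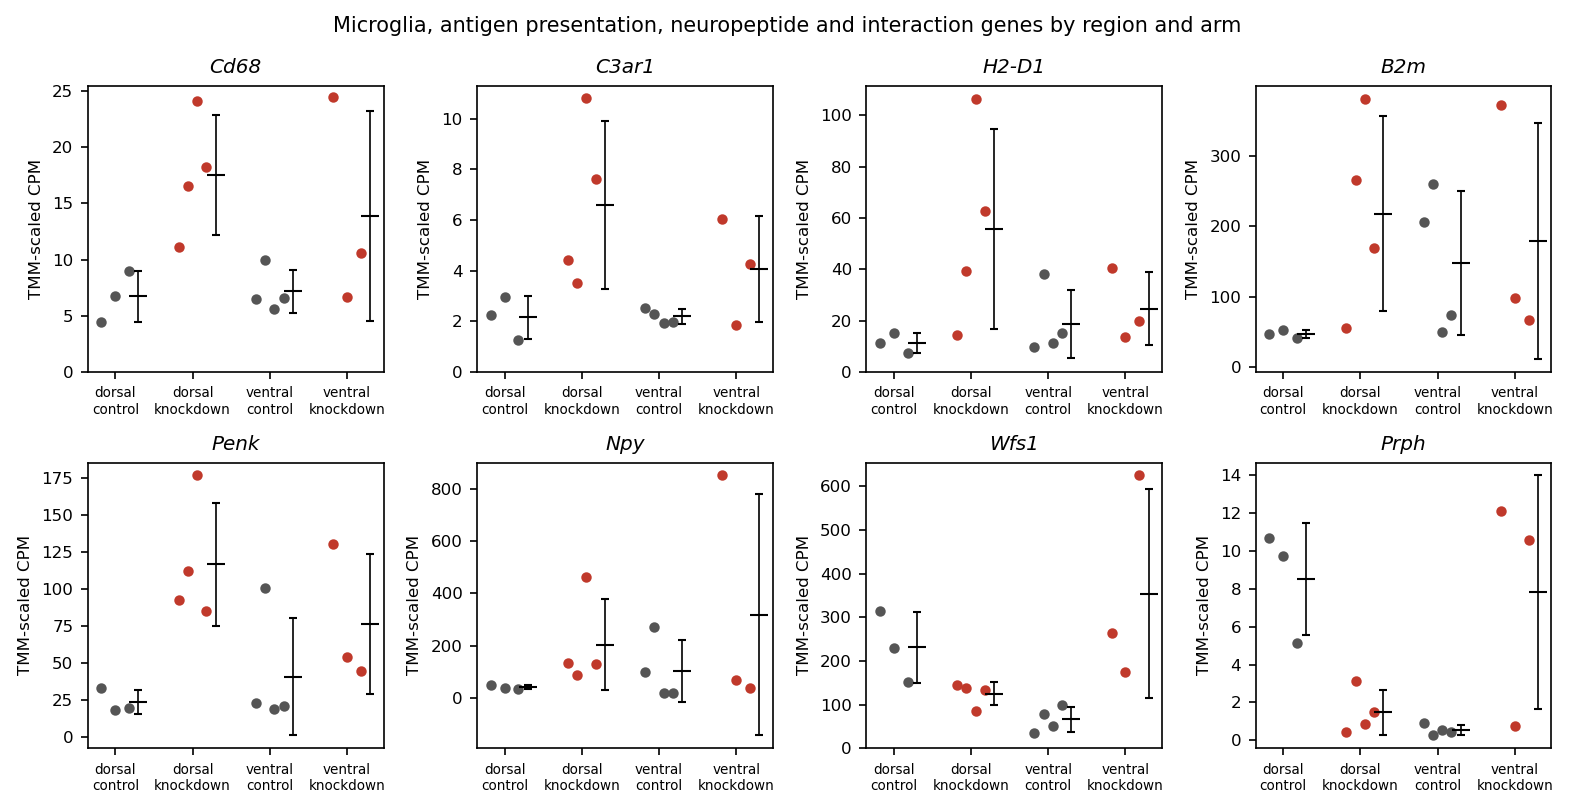
Cd68, C3ar1, H2-D1, B2m, Penk, Npy, Wfs1 and Prph in TMM-scaled CPM by region and arm; points are libraries (control grey, knockdown red) and bars give mean and SD. Cd68, C3ar1, B2m, Penk and Npy separate the arms in dorsal and not in ventral, and H2-D1 in neither. Wfs1 separates them in both regions, in opposite directions, and Prph in dorsal only, with knockdown lower.

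The gene groups nearest to the enzyme itself had medians near 0. In the acetate, citrate and acetyl-CoA supply list, 11 of 21 were above 0 (52.2% of all genes) and the median was 0.01. Acss2 alone had an unadjusted p under 0.05, on the lower side (1.5% of all genes), followed by Acly, the citrate lyase that is the other nuclear and cytosolic source of acetyl-CoA, at -0.26 (SE 0.13). Acss1, the mitochondrial acetate enzyme, had -0.08 (SE 0.14). Of 20 histone acetyltransferases and readers 18 were below 0 (52.2% of all genes were above 0), with a median of -0.08 and a span of -0.32 to 0.05. None of the 20 had an unadjusted p under 0.05 (3.36% of all genes). Their median was -0.16 in dorsal and 0.01 in ventral, and -0.01 without ventral knockdown 3. Of 15 histone deacetylases 8 were below 0, with a median of -0.02.

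Cholesterol synthesis genes, which use cytosolic acetyl-CoA, were below 0 for 28 of 33 (52.2% of all genes were above 0). Their median was -0.10 (-0.27 in dorsal, 0.03 in ventral), and -0.05 without dorsal knockdown 3. Stard4, a cholesterol carrier, was the member with the smallest p, at 3.39 to 12.4 CPM (median 8.83) in the knockdown arm and 9.63 to 18.3 CPM (median 13.4) in the controls, a log2 fold change of -0.69 (SE 0.25). Heat shock and chaperone genes were below 0 for 15 of 21 (52.2% of all genes were above 0), at a median of -0.14. On the lower side 2 had an unadjusted p under 0.05 (1.5% of all genes). These were Hspa5, the endoplasmic reticulum chaperone BiP, at -0.52 (SE 0.20), and Chordc1, a partner of Hsp90, at -0.35 (SE 0.15).

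Choroid plexus genes had the lowest median of all lists, -2.92, with 14 of 14 below 0 (52.2% of all genes were above 0). On the lower side 6 had an unadjusted p under 0.05 (1.5% of all genes). Kcne2, a potassium channel subunit of the choroid plexus, stood at 65.6 CPM in ventral control 4 and at 2.29 CPM or below in the other 13 libraries. Tmem72 had 73.9 CPM in ventral control 4 and at most 2.38 CPM elsewhere. Without that library the median of the list was -0.66, and the ventral median was -1.30 in place of -5.31. Ependymal genes had a median of -0.65, and -0.01 without ventral control 4.

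Dentate granule cell genes were below 0 for 14 of 15 members (52.2% of all genes were above 0), with a median of -0.47, -0.31 in dorsal and -0.64 in ventral. The shared median was -0.24 and the ventral one -0.12 without ventral control 3, and the dorsal one was -0.04 without dorsal control 3. Dsp, desmoplakin, which marks granule cells, stood at 1.42, 2.52, 5.13 and 0.670 CPM in dorsal knockdown 1 to 4 and at 63.3, 2.00 and 13.3 CPM in the dorsal controls. The ventral values were 11.7, 49.9 and 4.36 CPM in knockdown 2 to 4 and 12.1, 7.93, 202 and 66.4 CPM in control 1 to 4. Single libraries of either arm set the spread. Rfx3, a transcription factor of the ciliary programme that granule cells also express, had a log2 fold change of -0.71 (SE 0.25).

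**Figure D5:**
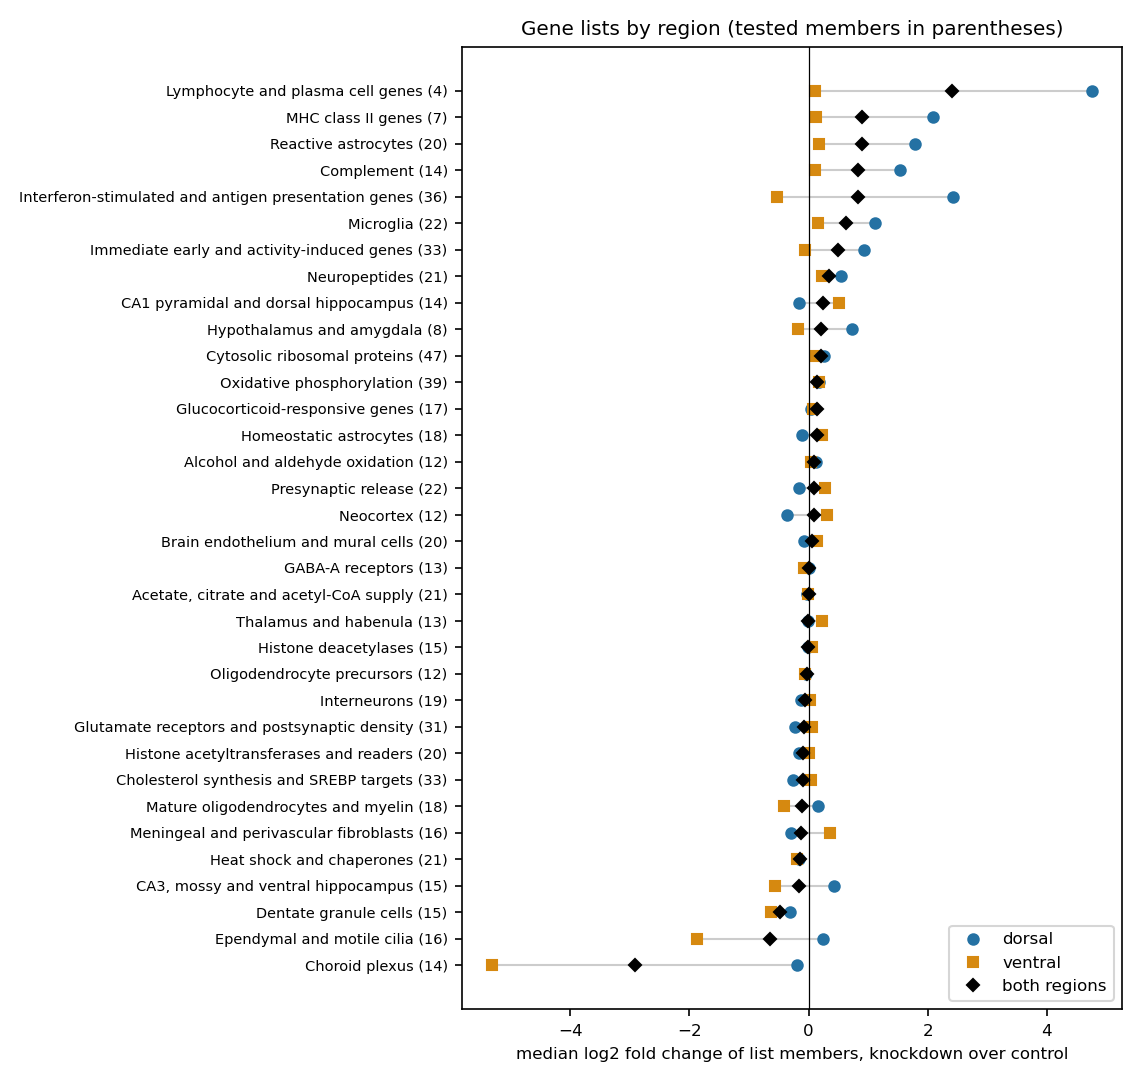
Median log2 fold change, knockdown over control, of each gene list in dorsal (circles), in ventral (squares) and in the model shared by both (diamonds), with the number of tested members in parentheses. Immune lists lie well above 0 in dorsal and near 0 in ventral, the interferon list crosses 0, and the choroid plexus list lies at -5.31 in ventral (-1.30 without ventral control 4).

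Ribosomal protein genes and oxidative phosphorylation genes had small positive medians with all libraries, and in each region these rested on 1 library. For cytosolic ribosomal proteins, 45 of 47 were above 0 (52.2% of all genes) at a median of 0.20. In both regions 35 of 47 were above 0 (24.9% of all genes), but the shared median was 0.03 without ventral knockdown 3. The dorsal median was 0.26, and 0.02 without dorsal knockdown 2, and the ventral median was 0.12, and -0.32 without ventral knockdown 3. For oxidative phosphorylation, 34 of 39 were above 0 (52.2% of all genes) at a median of 0.15, and the median became -0.01 without ventral knockdown 3. Its dorsal median was 0.18, and -0.09 without dorsal knockdown 2, and its ventral median was 0.17, and -0.21 without ventral knockdown 3. The ribosomal score was highest in dorsal knockdown 2 (0.74) and ventral knockdown 3 (0.78). These 2 libraries and ventral control 1 (score 0.34) had the 3 lowest shares of Rn45s, 1.17%, 1.08% and 0.625% of gene reads, and the part of that share in the result was not tested.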

How the data were processed

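The authors deposited a table of whole-number read counts per gene for 21 libraries. Libraries were made with the NEBNext Ultra II Directional kit, per the labels' protocols; STAR 2.5.2a, HTSeq 0.6.1p1 and the genome mm10 are named per the submitters' processing notes, and of the strand setting the counting used nothing is given in the sources used here. The 5 summary lines stayed out of library sizes. Of 24498 genes, 14578 passed edgeR's expression filter (minimum count 10). They were tested with edgeR 4.0.16 (R 4.3.3; quasi-likelihood, robust, TMM) with region and arm as terms, and separately with an interaction, with Benjamini-Hochberg adjustment at 0.05. DESeq2 1.42.0 and limma 3.58.1 (voom) were alternatives. Tables were joined in Python 3.11.15 with pandas 2.3.3. Gene positions are from GENCODE for GRCm38.

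Named genes were Acss2, up to 12 in each direction by smallest p with a mean of at least 1 CPM, the genes separating the arms in both regions with a mean of at least 5 CPM, the 3 with the smallest p for the interaction, and up to 3 in each direction per described list, the latter limited to p under 0.1 after values were seen. One gene that the rule names is not reported here. Gfap, P2ry12, Tmem119, Acss1, Cd79a, Unc13c, Isg15, Ifit3 and Gbp2 were named outside this rule after their values were seen. Members and the 35 lists were chosen with earlier results of these data known. Each of the 14 libraries was left out in turn, and 11 other settings were run, 3 of them chosen after seeing the data. On simulated counts with 7 libraries an arm, the pooled test recovered 50% of 2-fold and 91% of 4-fold changes among 14433 genes. The simulated interaction test recovered 0% and 37% among 14401 genes. Both simulations used the same mean for all libraries, with no region difference and no library standing apart. Their spread was that within groups of region and arm, and only genes averaging at least 1 CPM were changed. The recovered shares therefore do not bound which changes the test could have missed in the real libraries. Libraries sharing a replicate number had correlated deviations over 0.1 in 6 of 18 pairs (r from -0.22 to 0.37), so numbers were not taken to pair libraries.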

Additional observations from a re-analysis of the deposited data

Results flagged for a closer look

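In groups of 4 libraries, Dixon's ratio (critical value 0.829) was computed for the named genes and list scores. Of 146 groups examined, 10 values stood apart from the other libraries of their group, where chance gives about 1 in 20 groups. In ventral control 1, Isl1 had 0 CPM, Pld5 5.25 CPM, Idi1, of cholesterol synthesis, 17.4 CPM, and the immediate early score was -1.13. In ventral control 2, Trnp1 had 197 CPM and Penk 101 CPM. In dorsal knockdown 3, Lcn2 had 29.7 CPM and Wfs1 86.5 CPM. Hspa5 stood at 154 CPM in dorsal knockdown 1, and Isl1 at 0.268 CPM, from 2 reads, in dorsal knockdown 4.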

How the results depend on the processing

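No called gene and no gene named for the shared or the regional difference turned sign. Of 34 list medians, 18 turned sign in at least 1 setting, none of them over 0.21 in size with all libraries; oxidative phosphorylation went from 0.15 to -0.01 without ventral knockdown 3. The ventral interferon median turned from -0.53 to 0.63 without ventral control 2. By edgeR, genes called higher in knockdown numbered 0 to 2 with each library left out in turn, the 2 coming without ventral control 2, and genes called lower 0 to 0; both were 0 under the 11 other settings. Genes called for the difference between regions numbered 0 to 2 with a library left out (2 without ventral knockdown 3, 1 without ventral control 1) and 9 by DESeq2. Genes separating the arms in both regions numbered 8 to 39 higher (39 without ventral control 2) and 3 to 27 lower (27 without ventral knockdown 4) with a library left out. Under RLE scaling they numbered 7 higher and 9 lower. Leaving out a library lowers the number of possible arrangements, so a separation becomes more frequent by design. Any other cause of these shifts was not tested. Genes under 0.05 before adjustment numbered 353 to 812 with a library left out (812 without ventral control 1), 744 without the low-count filter, 739 without the region term and 955 without the 3 shallowest libraries; for the last 2 the cause was not tested. Acss2 ranged from -0.73 to -0.42 with a library left out. The choroid plexus median was -0.66 without ventral control 4. With the replicate number as a block, 0 genes were called, 532 lay under 0.05 before adjustment, and Acss2 had -0.47 (edgeR adjusted p 0.979, range 0.772 to 1 over all settings); no call changed. The pooled depth, down to 2819837 gene reads, limits low genes such as Avpr1a.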

Other observations

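Other cell types and circuits had medians from -0.17 to 0.25 in the shared model and often opposite signs in the regions. Over all genes 52.2% were above 0 in the shared model, the share to set beside the counts below. Mature oligodendrocyte and myelin genes had 4 of 18 above 0, with a median log2 fold change of -0.12 (0.15 in dorsal, -0.41 in ventral) and 0.17 without ventral control 4. Oligodendrocyte precursor genes had a median of -0.03, brain endothelium and mural cell genes 0.05, and meningeal and perivascular fibroblast genes -0.13. The homeostatic astrocyte list had 13 of 18 above 0. CA1 and dorsal hippocampus genes had 10 of 14 above 0, at a shared median of 0.25 (-0.16 in dorsal, 0.51 in ventral). Their score was lowest in ventral control 3, at -1.69. CA3, mossy and ventral hippocampus genes had 5 of 15 above 0, at a shared median of -0.17 (0.43 in dorsal, -0.57 in ventral). Neocortex genes had a median of 0.09, thalamus and habenula genes -0.00, and hypothalamus and amygdala genes, of which 8 were tested, 0.21.

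Glutamate receptor and postsynaptic density genes were below 0 for 24 of 31, at a median of -0.08, and presynaptic release genes above 0 for 15 of 22, at 0.09. GABA-A receptor genes had 7 of 13 above 0, interneuron genes 9 of 19, and glucocorticoid-responsive genes 12 of 17, at a median of 0.14. Alcohol and aldehyde oxidation genes had 7 of 12 above 0, at 0.09. Of the blood list 1 gene was tested, at -0.06. No member of these lists passed the adjusted test by edgeR.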
